A study of Mus musculus with 19 samples.

Results

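Interferon-stimulated genes are the genes whose transcription cells raise when interferon binds its receptors, and 39 of them were followed in the tongue epithelium of mice carrying HPV oncogenes, active YAP, both or neither. The 39 genes were taken by symbol from a list of such genes, and all of them stood among the 24689 gene symbols of the RNA-seq table. Bulk poly-A RNA-seq of tongue epithelium covered 19 mice in 4 groups, 15 days after transgene induction. The question addressed was how the E6-E7 oncogenes of HPV 16 and a constitutively active YAP allele, alone and together, alter the transcriptome of the epithelium in which oral cancers arise.

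Group E (5 mice) carried Krt14-CreERT, LSL-rtTA and tetON_E6-E7. Group Y (3 mice) carried Krt14-CreERT, LSL-rtTA and tetON_YAP1S127A, the S127A allele that escapes inhibition by the Hippo kinases, and group EY (6 mice) carried both tetON transgenes with the same drivers. The 5 control mice of group N differed in genotype: N1, N2 and N3 carried Krt14-CreERT and LSL-rtTA, N4 carried LSL-rtTA without a Cre, and N5 carried Krt14-CreERT with both tetON transgenes but no rtTA to switch them on. The methods of the study add a tetON_H2B-GFP reporter to the lines. Mice were littermates of both sexes, 8 to 16 weeks old, and received tamoxifen into the tongue in 3 doses of 100 µL at 20 mg/mL on alternate days, with a doxycycline diet. The human keratin 14 promoter limits recombination to basal epithelial cells that received tamoxifen, while the sequenced tissue was the whole epithelial sheet freed by collagenase and dispase, so unrecombined keratinocytes and other cells of the sheet contributed RNA. Expression is given as TPM, a count of transcripts scaled to a total of 1000000 per mouse, which corrects for gene length, and the whole reads recovered from these values came to between 8269674 in Y1 and 11007304 in EY2.

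Type I and type III interferons signal through the kinases JAK1 and TYK2 to STAT2 and IRF9, parts of the complex that binds the interferon-stimulated response element (ISRE) in promoters, whereas interferon gamma acts on a different element, the gamma-activated site (GAS). Many of the induced proteins sense foreign nucleic acid, block viral translation or replication, or feed back on the pathway. In stratified epithelia these genes are known for defence against viruses, and the HPV oncoproteins are known to interfere with several steps of interferon signalling.

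The tissue was first checked against its defining markers. Krt5 and Krt14, the keratins of basal keratinocytes, were present at 2055 and 4658 TPM or more in all 19 mice, and the 7 keratinocyte markers were above 0 in each of them. These markers differed between groups: of the 7, Krt14 and Dsg3 were called higher and Krt13, Krt4 and Krt15 lower in EY minus N. In bulk samples, fewer cells of a type and less RNA per cell cannot be told apart. Genes known to rise with E6-E7 (Cdkn2a, Mcm2, Mcm5, Ccne1 and Mki67) were called higher for 3 of 5 in E minus N, 3 of 5 in Y minus N and 5 of 5 in EY minus N. YAP target genes (Ccn1, Ccn2, Amotl2, Ankrd1 and Axl) were called higher for 3 of 5 in Y minus N and 4 of 5 in EY minus N, while limma and voom both called 0 of 5 in E minus N, with 0 at an unadjusted p under 0.05.

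Each gene was tested with limma on log2(TPM + 0.1) over all 19 mice, and a difference was called at an adjusted p under 0.01 with an absolute log2 fold change above 1; fold changes on this scale understate those of genes near 0 TPM. All 39 members passed the filter of 0.1 TPM in 3 mice, as did 22745 of the 24689 symbols. Most members rose in EY tongues: 25 of 39 were called higher in EY minus N and 0 lower, where 12.6% of all genes tested were called higher and 5.71% lower. Among these 25 were all 5 oligoadenylate synthetases, 9 of 11 other antiviral effectors and all 3 members of the PARP9 and DTX3L group, but none of the 4 Ifit genes and none of the 3 nucleic acid sensors. An unadjusted p under 0.05 was reached by 37 members, against 11043 of all 22745 genes tested in either direction. Voom on the recovered reads called 12 members. The median log2 fold change of the members was 2.35, against 0.33 for all genes.

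The number of members called in EY minus N depended on scaling and on single mice. Median-of-ratios scaling lowered the median of all genes in EY minus N by 0.32 and quantile normalization by 0.29 on the log2 scale, and the members called numbered 9 and 11, with member medians of 1.97 and 2.02. Of all genes called in EY minus N, 68.8% were higher without scaling and 43.8% after median-of-ratios scaling. Left-out mice moved the count to 13 without N2, 15 without N3, 11 without N5, 16 without EY3 and 15 without EY5, and it was 6 with only N1, N2 and N3 as controls. The count rose to 30 without N1, 31 without E4, 28 without E5 and 30 with only EY and N in the fit. Oasl1 and Bst2 were called under every alternative setting and with any single mouse left out.

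In E minus N, 2 of 39 members were called higher, Ifi27l2a and Irf9, and 0 lower, against 1.16% of all genes higher and 0.044% lower. All 39 member fold changes were positive nevertheless, with a median of 2.10 against 0.07 for all genes. An unadjusted p under 0.05 was reached by 32 members, against 3358 of all 22745 genes tested in either direction. Voom called 3 members. The count was 0 without N2, N3, N4, N5, E2, E3 or E5, 1 without Y1, Y2, EY2 or EY6, 6 without N1 and 11 without E4. It was also 1 after median-of-ratios scaling, 0 after quantile normalization, with only N1, N2 and N3 as controls or with only E and N in the fit, and 13 at an adjusted p below 0.05.

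In Y minus N, limma called 0 of 39 members in either direction, where 3.47% of all genes were called higher and 1.11% lower. Voom called 0 members as well, and 4 reached an unadjusted p under 0.05, against 6562 of all 22745 genes tested in either direction. That 4 was 11 without N1, 2 without N2, 9 without E4, 7 without E5, 0 without Y3, 1 with only N1, N2 and N3 as controls and 7 with only Y and N in the fit. The member fold changes had a median of 0.86, against 0.13 for all genes, and 37 of 39 were positive. Median-of-ratios scaling lowered the median of all genes in Y minus N by 0.17 on the log2 scale and the member median to 0.68, and moved the share of calls that were higher from 75.8% to 57.2%. The 3 comparisons share their N mice, so their values stand side by side and are not independent.

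**Figure D1:**
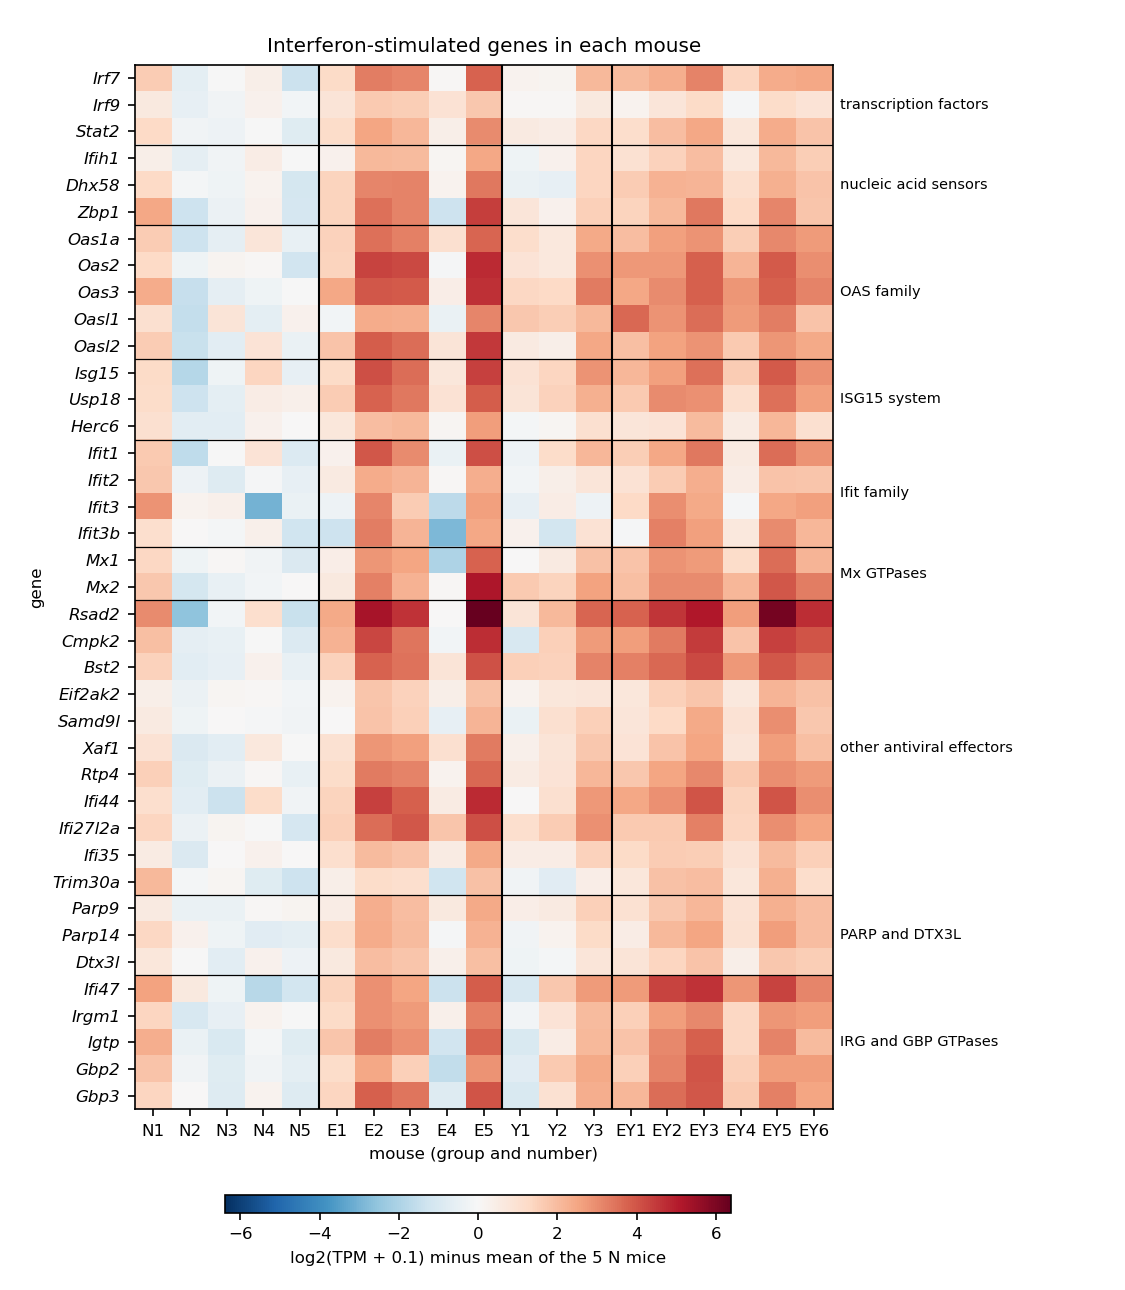
Levels of the 39 members in each of the 19 mice, as log2(TPM + 0.1) relative to the average N mouse, with genes in rows by role and mice in columns by group. E2, E3 and E5 lie above E1 and E4 for all 39 members, and N1 is the highest N mouse for 36 of 39.

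**Figure D2:**
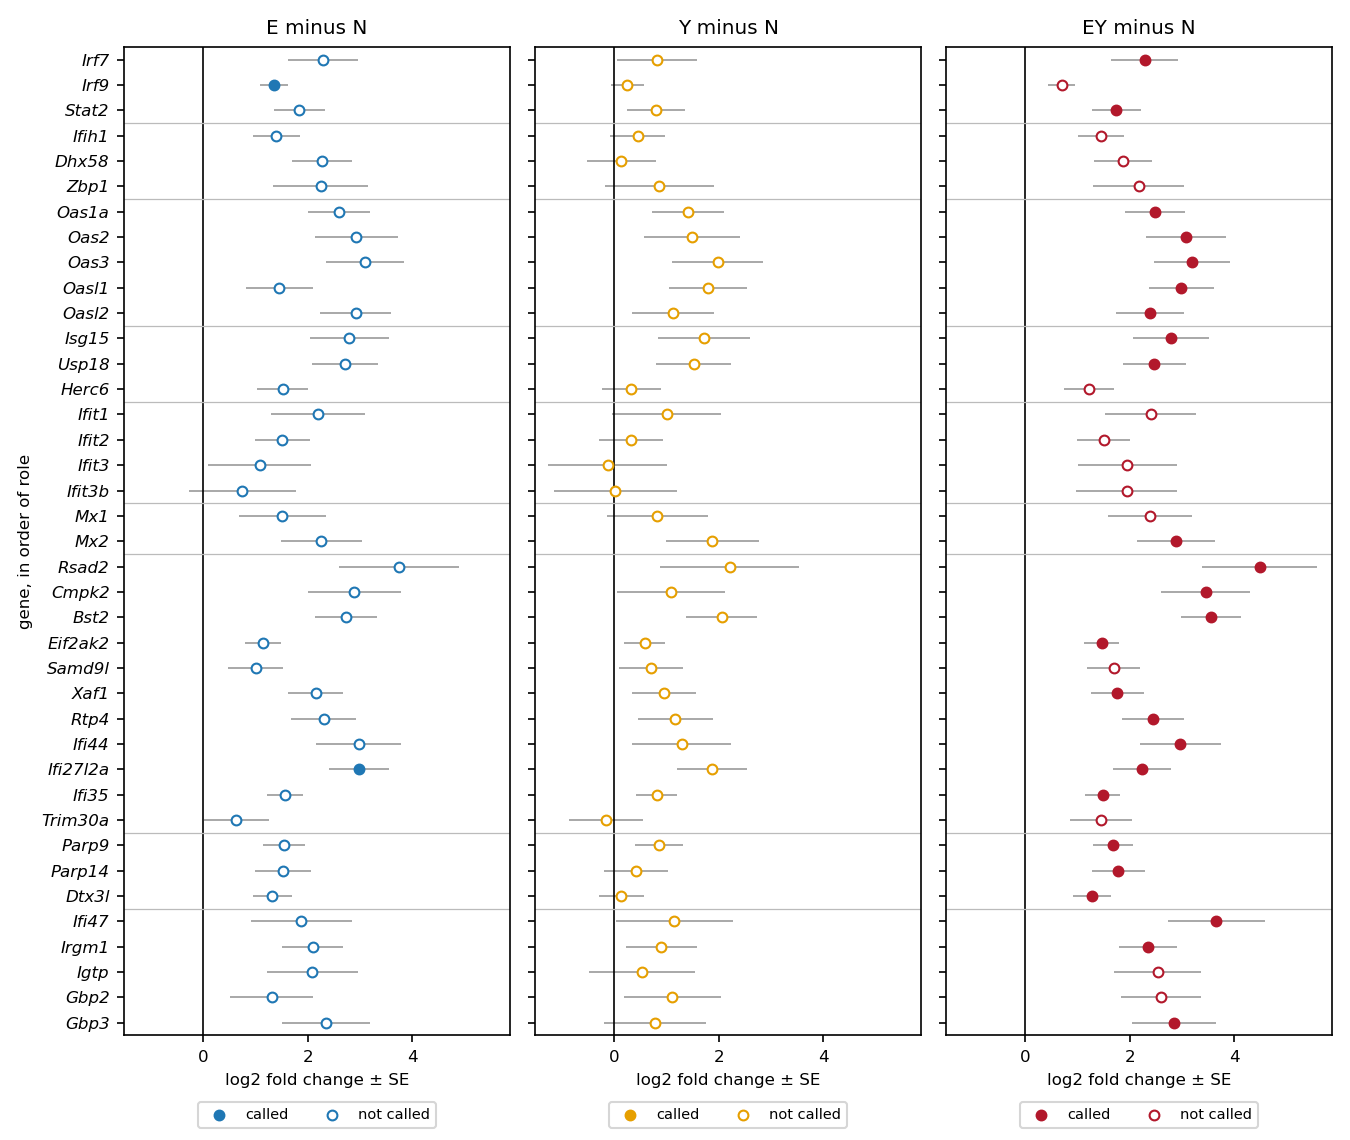
Log2 fold change of each member in E minus N, Y minus N and EY minus N, with bars of 1 standard error and filled points for called members. The 25 filled points in EY minus N, 2 in E minus N and 0 in Y minus N are drawn on the same axis, and all 3 panels share the 5 N mice.

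The members moved together from mouse to mouse over the 19 mice once group means were subtracted. Their mean log2(TPM + 0.1) was 2.94, 0.83, 1.17, 1.57 and 0.96 in N1 to N5 and 2.5, 4.54, 4.19, 1.41 and 4.95 in E1 to E5. The same mean was 1.71, 2.22 and 3.39 in Y1 to Y3 and ran from 2.80 in EY4 to 4.51 in EY5, with a median of 3.90. N1 was thus high for a control and E4 low for its group, and the N, E and Y ranges overlapped; the lowest EY mouse lay below N1. By gene, N1 was the highest N mouse for 36 of 39 members and N4 for the other 3, whereas N1 was highest for 22.8% of all genes tested. E1 and E4 were the lowest E mice for all 39 members, and E5 was the highest for 34. Y3 was the highest Y mouse for 38 members, and EY4 the lowest EY mouse for 30. Over all 19 mice, 26 members had their highest level in E5, 4 in E2, 4 in EY3, 4 in EY5 and 1 in EY1.

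This variation exceeded that of most genes. After removing group means, the standard deviation of log2 values between mice had a median of 1.05 over the members and 0.47 over all genes tested. Within E the medians were 1.51 for members and 0.39 for all genes, within N 0.91 and 0.42, within Y 0.95 and 0.35, and within EY 0.74 and 0.44. Pearson's r between pairs of members over the 19 mice, after subtracting group means, had a median of 0.864 and ranged from 0.490 to 0.984 over 741 pairs; it is given as a description, since all pairs come from the same libraries. The number of members above the highest N mouse was 12 in E1, 38 in E2, 35 in E3, 5 in E4 and 37 in E5. It was 2, 7 and 30 in Y1, Y2 and Y3, and in EY it ran from 17 in EY4 to 38 in EY5. Every E mouse lay above every N mouse for 3 members (Xaf1, Ifi27l2a and Irf9, named after their values were seen), against 3.93% of all genes tested. Every Y mouse did so for 2 members, Oasl1 and Bst2, against 15.5% of all genes, and every EY mouse for 17 members, against 20.9%.

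Markers of other cells also varied between mice, and their part in the member levels was not tested. The 7 macrophage markers summed to 390.1, 120.0, 73.6, 48.3 and 52.8 TPM in N1 to N5, 166, 151, 168, 43.3 and 283 TPM in E1 to E5, 119, 66.9 and 139 TPM in Y1 to Y3 and 331, 305, 275, 328, 222 and 183 TPM in EY1 to EY6. N1 carried the highest macrophage sum of all mice and E4 the lowest, and Cd14 was the most abundant macrophage marker by its EY mean. No macrophage marker was called in E minus N, Y minus N or EY minus N by limma or by voom (0 of 7 each), with 0, 0 and 3 at an unadjusted p under 0.05. All 7 had positive log2 fold changes in EY minus N, with a median of 1.437 (1.063 after median-of-ratios scaling). All 7 were also positive in E minus N, from 0.037 to 0.743 with a median of 0.218. In Y minus N 6 of 7 were negative, with a median of -0.509. The 3 markers common to leukocytes (Ptprc, Laptm5 and Coro1a, the most abundant) summed to 26.1, 9.87, 6.49, 2.34 and 7.66 TPM in N1 to N5, 12.2, 10.8, 13.6, 3.21 and 21.2 TPM in E1 to E5, 9.23, 8.22 and 10.5 TPM in Y1 to Y3 and 17.5, 22.9, 15.6, 18.8, 16.1 and 19.6 TPM in EY1 to EY6. N1 was again the highest of all mice, and limma and voom both called 0 of 3 in each comparison with N, with 1 at an unadjusted p under 0.05 in EY minus N, where all 3 were positive with a median of 0.728, and 0 in the other 2.

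Of the 6 neutrophil markers, Cd177 and Ly6g were called higher in EY minus N, where all 6 were positive with a median of 2.079 and 4 reached an unadjusted p under 0.05. The neutrophil markers, of which Retnlg was the most abundant by its EY mean, summed to 7.62, 1.35, 1.29, 0.978 and 2.25 TPM in N1 to N5, 4.61, 1.32, 2.13, 0.31 and 7.73 TPM in E1 to E5, 15.1, 2.41 and 23.8 TPM in Y1 to Y3 and 67.7, 63.7, 29.7, 119, 14.5 and 1.48 TPM in EY1 to EY6. Ly6g, a defining marker, had no reads in any mouse of N, E or Y, nor in EY6, and the sum was highest in EY4, the EY mouse in which most members were lowest. The 7 T cell markers, with Trac the most abundant by its EY mean, summed to 5.2, 5.25, 0.82, 1.06 and 4.08 TPM in N1 to N5, 5.08, 5.05, 3.06, 0.244 and 6.84 TPM in E1 to E5, 1.42, 3.47 and 5.27 TPM in Y1 to Y3 and 9.72, 11.2, 7.62, 8.89, 7.73 and 6.09 TPM in EY1 to EY6, and 1 of them, Cd3d, was called higher in EY minus N. All 7 were positive there with a median log2 fold change of 1.561 (1.262 after median-of-ratios scaling) and 5 reached an unadjusted p under 0.05. Cd177 lost its call in EY minus N without N2, N3, N4, N5, EY1, EY2, EY3 or EY4 (adjusted p up to 0.0165) and with a pseudocount of 1 TPM, quantile normalization, only N1 to N3 as controls or only the 2 groups compared in the fit (adjusted p up to 0.0361, or a log2 fold change of 1 or less). E4 had the lowest T cell sum, with Cd3e, Cd4, Cd8a, Trac and Trdc at 0. Of 4 plasmacytoid dendritic cell markers, 3 passed the filter and 1, Spib, was called higher in Y minus N and EY minus N, while Ccr9 was lower (-0.59 ± 0.28 SE, adjusted p = 0.179 and -0.49 ± 0.23 SE, adjusted p = 0.103), and the median of the 3 in EY minus N was 0.246 (-0.042 after median-of-ratios scaling). Their sums were 1.77, 0.518, 0.645, 0.391 and 0.632 TPM in N1 to N5, 0.408, 1.42, 1.14, 0.454 and 1.06 TPM in E1 to E5, 1.85, 2.45 and 3.26 TPM in Y1 to Y3 and 2.57, 4.3, 1.54, 3.11, 3.86 and 2.8 TPM in EY1 to EY6 with Spib the most abundant by its EY mean, while the defining marker Siglech stayed between 0.0595 and 1.34 TPM. Cd3d lost its call in EY minus N without N4 (adjusted p = 0.0101) and with a pseudocount of 1 TPM or only N1 to N3 as controls (adjusted p up to 0.0119, or a log2 fold change of 1 or less). Spib lost its call in Y minus N without Y2 or Y3 (adjusted p up to 0.0149) and with only N1 to N3 as controls or only the 2 groups compared in the fit (adjusted p up to 0.041). Their part in the member levels was not tested either.

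Among Langerhans and dendritic cell markers, 1 of 6, Cd207, was called lower in EY minus N. In that comparison 4 of the 6 had positive log2 fold changes and the median was 0.304 (-0.064 after median-of-ratios scaling). Their sums, in which Cd74 was the most abundant gene, were 203, 127.3, 64.9, 41.4 and 58.5 TPM in N1 to N5, 137, 103, 101, 49.8 and 144 TPM in E1 to E5, 82.6, 55 and 89.2 TPM in Y1 to Y3 and 76.9, 181, 78.8, 61.8, 112 and 201.2 TPM in EY1 to EY6. Cd207 itself was above 0 in every mouse. Cd207 lost its call in EY minus N without N1 (adjusted p = 0.0112) and with only the 2 groups compared in the fit (adjusted p = 0.0204). Among fibroblast markers, 1 of 6, Dcn, was called lower in EY minus N and was also the most abundant by its N mean. The other 5 had positive log2 fold changes, 0 of them at an unadjusted p under 0.05, and the median of the 6 was 0.389 (0.018 after median-of-ratios scaling). In E minus N and Y minus N all 6 fibroblast markers were negative, with medians of -0.434 and -1.585. Limma called 0 in both, voom 0 and 1, and 0 and 1 reached an unadjusted p under 0.05. The fibroblast sums were 293, 204, 86.3, 73.9 and 61.5 TPM in N1 to N5, 93.2, 82.5, 65.7, 57.2 and 104 TPM in E1 to E5, 23.8, 44.1 and 34.5 TPM in Y1 to Y3 and 68.1, 77.2, 148, 24.2, 50.3 and 153 TPM in EY1 to EY6, and none of the 6 was at 0 in any mouse. NK cell, endothelial and skeletal muscle markers (5, 5 and 6 genes) had 0 called in each comparison with N by limma and by voom, with 1, 0 and 0 at an unadjusted p under 0.05 in EY minus N, 1, 0 and 0 in E minus N and 0 in Y minus N. In EY minus N 3 of 5, 4 of 5 and 6 of 6 were positive, with medians of 0.103, 0.635 and 1.774. In Y minus N this held for 1 of 5, 0 of 5 and 0 of 6, with medians of -0.618, -0.484 and -0.806. The muscle sum was 1197 TPM in EY3 and at most 227 TPM in any other mouse. The part of these cells in the member levels was not tested.

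**Figure D3:**
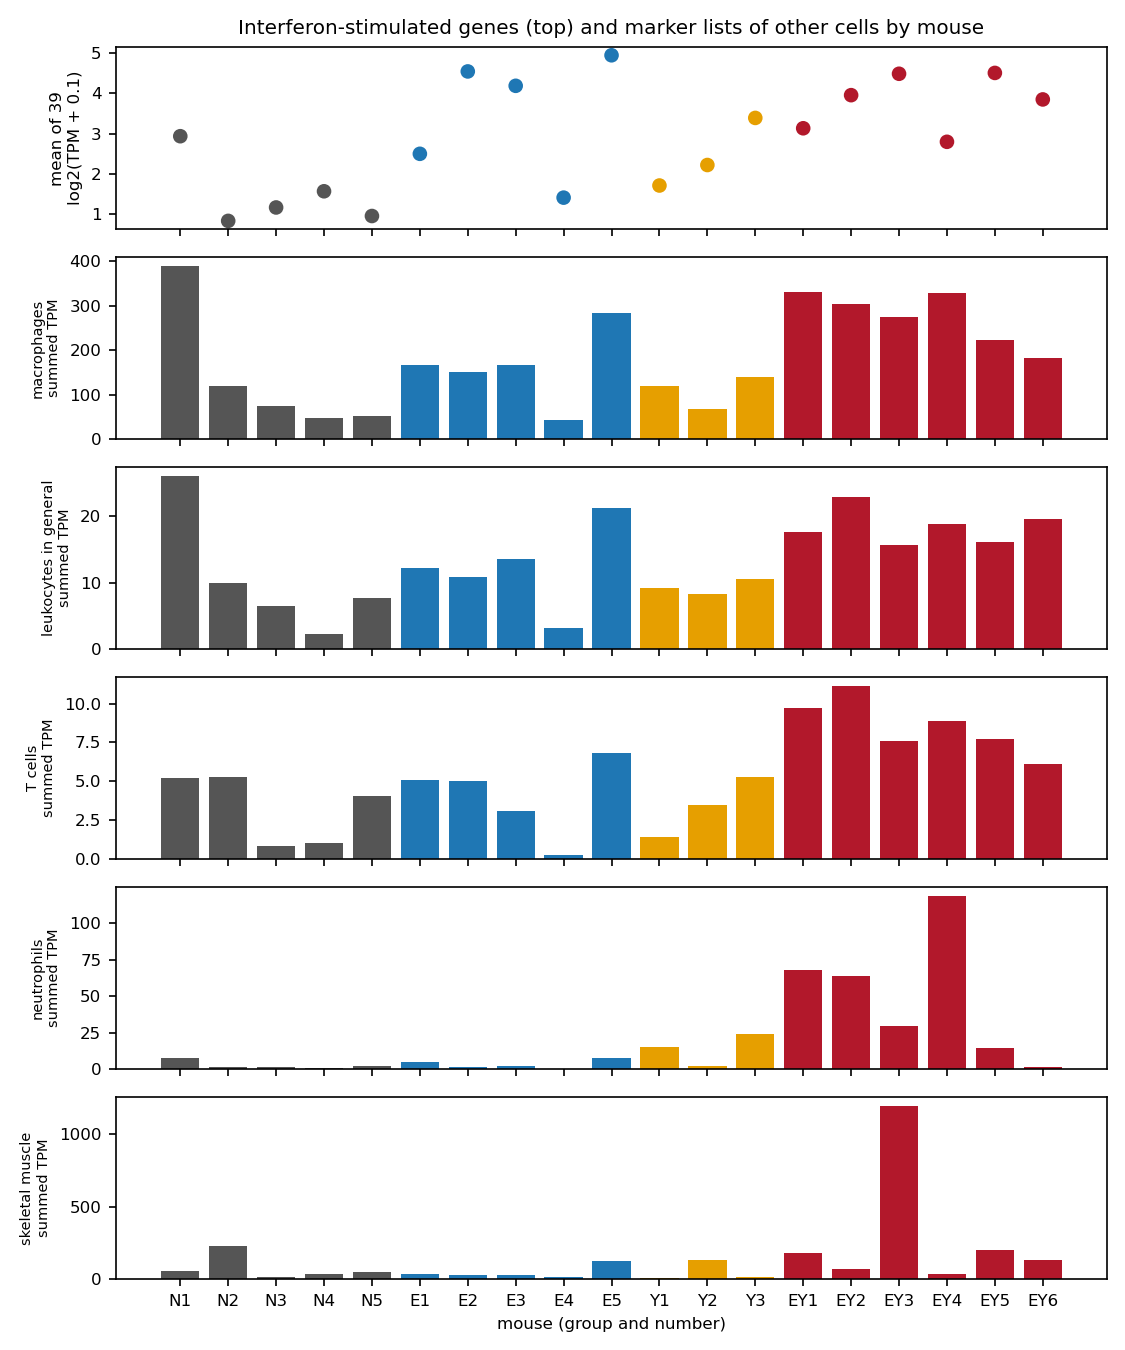
Mean log2(TPM + 0.1) of the 39 members in each mouse (top, points) above the summed TPM of 5 marker lists (bars from 0), with mice by group along the axis. N1 is high for the members, macrophages and leukocytes alike, and E4 is low for all 3. EY1 and EY4 have the highest macrophage sums within EY but the lowest member means, and EY4 has the highest neutrophil sum.

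RefSeq promoter windows of build GRCm38.p6, 250 bases before to 50 after the transcription start, were found for 29 of 39 members, and both strands were searched for the ISRE core, read as GAAA, any 2 bases and GAAA. It was found in 16 of these 29 members (55.2%) and in 17 of their 33 windows (51.5%), against 3.99% of all 27025 genes and 3.44% of all 32851 windows. The GAS letters TTCNNNGAA were found in 6 of 29 members (20.7%), against 9.55% of all genes, and in 6 of their 33 windows (18.2%), against 8.3% of all windows. A match is a description of these letters and not of binding, and no window was used for Usp18, Mx2, Parp14, Zbp1, Ifi27l2a, Parp9, Rtp4, Mx1, Dhx58 and Oas2. The 150 bases before the start are shown for 5 of the members described mouse by mouse (Oas1a, Oas3, Rsad2, Bst2 and Irgm1) and for Isg15, chosen after its values were seen, because all 6 hold the ISRE core there. They lie on the minus strand, with Isg15 at chr4:156200819-156200968, Oas1a at chr5:120907526-120907675, Oas3 at chr5:120777660-120777809, Rsad2 at chr12:26456453-26456602, Bst2 at chr8:71537473-71537622 and Irgm1 at chr11:48871421-48871570, and are written 5′ to 3′ along each gene, with capitals marking the matches (in Rsad2 on the opposite strand).
Isg15: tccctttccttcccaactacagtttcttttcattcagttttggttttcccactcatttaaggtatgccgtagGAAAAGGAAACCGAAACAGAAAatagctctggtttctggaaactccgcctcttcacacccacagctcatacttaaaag
Oas1a: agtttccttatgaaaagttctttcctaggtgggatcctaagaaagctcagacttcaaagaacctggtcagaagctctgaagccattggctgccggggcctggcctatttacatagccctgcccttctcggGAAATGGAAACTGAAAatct
Oas3: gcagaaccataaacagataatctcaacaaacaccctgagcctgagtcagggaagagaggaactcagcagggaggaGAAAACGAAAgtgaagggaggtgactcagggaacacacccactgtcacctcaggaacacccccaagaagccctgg
Rsad2: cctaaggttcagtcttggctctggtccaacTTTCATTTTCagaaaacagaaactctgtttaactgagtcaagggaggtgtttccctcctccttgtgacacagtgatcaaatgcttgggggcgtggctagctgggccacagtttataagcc
Bst2: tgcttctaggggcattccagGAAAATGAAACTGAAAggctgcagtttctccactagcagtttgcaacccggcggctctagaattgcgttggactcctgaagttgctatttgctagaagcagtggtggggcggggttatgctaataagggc
Irgm1: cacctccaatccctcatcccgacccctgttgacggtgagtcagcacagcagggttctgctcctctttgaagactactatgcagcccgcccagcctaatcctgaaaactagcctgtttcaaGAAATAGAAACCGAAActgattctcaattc

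In Isg15 the matches overlap and span 78 to 57 bases before the start, and in Oas1a they span 20 to 5 bases before it. The matches of Oas3, Rsad2, Bst2 and Irgm1 begin 75, 120, 130 and 30 bases before their starts. Isg15 holds 3 overlapping matches, Oas1a, Bst2 and Irgm1 hold 2 each, and Oas3 and Rsad2 hold 1. Oasl1, Ifi35 and Cmpk2, also described mouse by mouse, have windows without the ISRE core letters, while Eif2ak2 has 1 match 18 bases after its start.

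**Figure D4:**
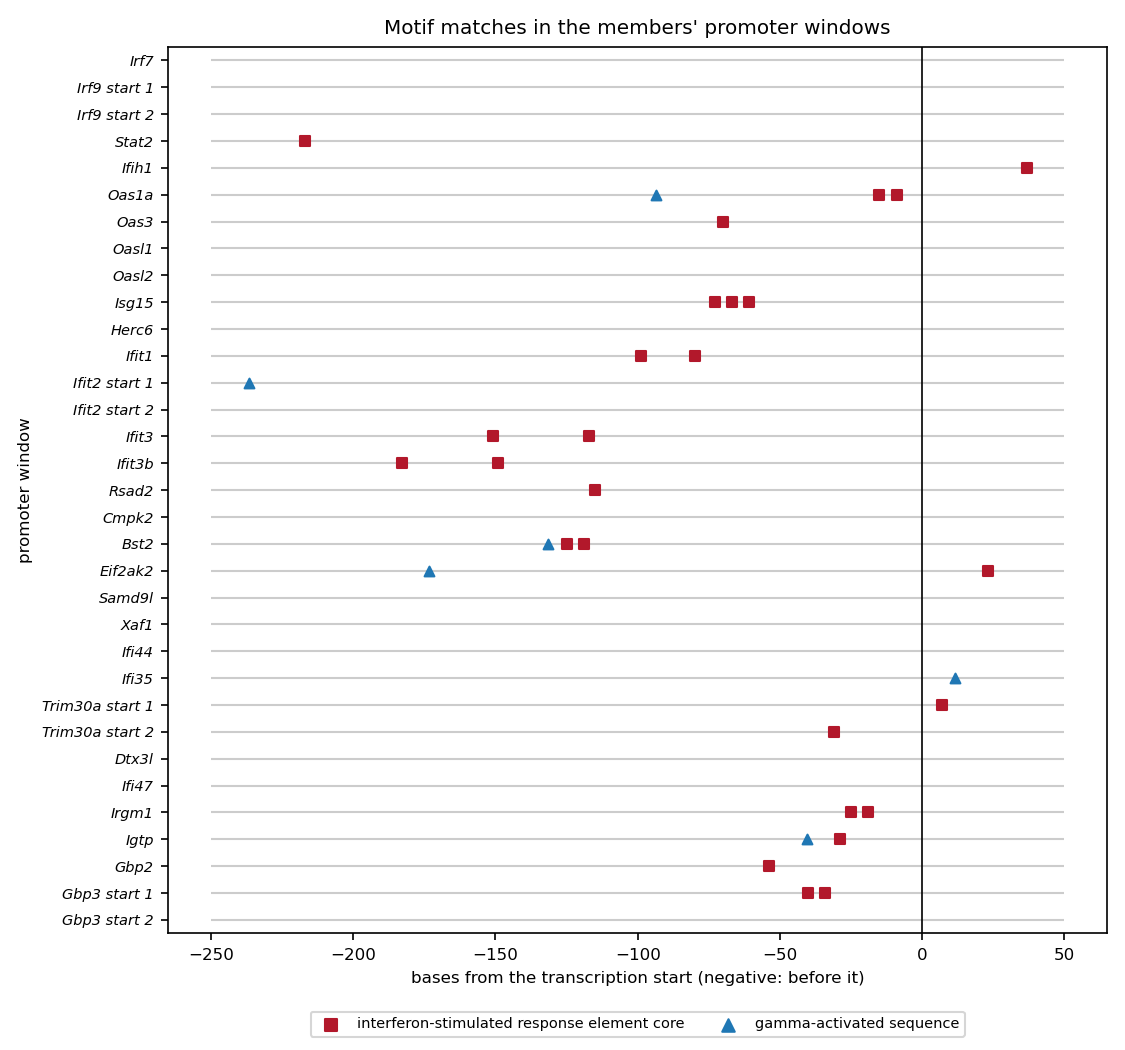
Positions of the ISRE core and GAS letters in the 33 promoter windows of 29 members, in bases from the transcription start. Each row is 1 window and each symbol marks the middle of a match. ISRE core matches appear in 17 of the 33 windows and GAS matches in 6.

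The transcription factors among the members are Irf7, which drives interferon gene transcription, and Irf9 and Stat2, parts of the complex that binds the ISRE. Irf9 was at 65.2, 29, 35.5, 51.2 and 37.1 TPM in N1 to N5 and 75.3, 134, 126, 79.8 and 138 TPM in E1 to E5. Its level was 43.7, 44.2 and 63.6 TPM in Y1 to Y3, and in EY it ran from 39.4 to 97.1 TPM with a median of 72.9 TPM. Every E mouse lay above every N mouse, Y lay within the range of N, and EY1 and EY4 overlapped N while the other EY mice lay above it. Irf9 rose in E minus N with a log2 fold change of 1.35 ± 0.28 (SE, adjusted p = 0.00818), and in EY minus N the value was 0.69 ± 0.26 (SE, adjusted p = 0.0438); the Irf9 difference between EY and E was -0.66 ± 0.26 (SE, adjusted p = 0.061). Irf9 was singled out after its values were seen. Irf9 lost its call in E minus N without N2, N3, N4, N5, E2, E3, E5, Y1, Y2, EY2 or EY6 (adjusted p up to 0.0294) and with median-of-ratios scaling, quantile normalization, only N1 to N3 as controls or only the 2 groups compared in the fit (adjusted p up to 0.0467). Irf7 ranged over 5.14 to 41.4 TPM in N and 34.4 to 122 TPM in EY and rose in EY minus N by a log2 of 2.29 ± 0.64 (SE, adjusted p = 0.00777). Stat2 ranged over 2.81 to 12 TPM in N and 8.15 to 26.9 TPM in EY and rose by 1.74 ± 0.46 (SE, adjusted p = 0.00542). N1 lay above EY4 for Irf7 and above EY1 and EY4 for Stat2. Irf7 lost its call in EY minus N without N2, N3, N4, N5, EY1, EY2, EY3, EY5 or EY6 (adjusted p up to 0.0274) and with median-of-ratios scaling, quantile normalization, only N1 to N3 as controls or voom (adjusted p up to 0.0553). Stat2 lost its call in EY minus N without N2, N3, N4, N5, EY2, EY3, EY5 or EY6 (adjusted p up to 0.0187) and with median-of-ratios scaling, quantile normalization or only N1 to N3 as controls (adjusted p up to 0.0494).

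The nucleic acid sensors are Ifih1 (MDA5) and Dhx58 (LGP2), which recognise double-stranded RNA, and Zbp1, which binds nucleic acid in the Z conformation. None of the 3 was called in E minus N, Y minus N or EY minus N by limma or voom, with 3, 0 and 3 at an unadjusted p under 0.05. Ifih1 ranged over 1.7 to 3.71 TPM in N and 4.21 to 11.1 TPM in EY, without overlap, and its log2 fold change was 1.45 ± 0.44 (SE, adjusted p = 0.0125). Dhx58 ranged over 1.6 to 8.8 TPM in N, 4.27 to 38.1 TPM in E and 7.73 to 17.7 TPM in EY, with 1.87 ± 0.55 (SE, adjusted p = 0.0108) in EY minus N. Zbp1 ranged over 0.333 to 5.83 TPM in N and 2.45 to 10.8 TPM in EY, with 2.17 ± 0.87 (SE, adjusted p = 0.0545). For Dhx58 and Zbp1, N1 lay within the EY range.

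The oligoadenylate synthetases make oligoadenylates on binding double-stranded RNA, and Oasl1 is a relative known to restrain Irf7 translation. In EY minus N limma called all 5 higher and voom 3, while in E minus N and Y minus N limma and voom each called 0, with 5 and 2 at an unadjusted p under 0.05. Oasl1 was at 3.49, 0.519, 3.1, 1.07 and 2.04 TPM in N1 to N5 and 1.49, 9.23, 8.85, 1.23 and 15.6 TPM in E1 to E5. In Y1 to Y3 Oasl1 was at 5.7, 5.28 and 7.43 TPM, and in EY it ran from 6.21 to 22.2 TPM with a median of 15.1 TPM. Every Y and every EY mouse lay above every N mouse, while E1 and E4 lay within the N range. Oasl1 rose in EY minus N by 2.99 ± 0.62 (SE, adjusted p = 0.000772), with 1.46 ± 0.65 (SE, adjusted p = 0.296) in E minus N and 1.79 ± 0.75 (SE, adjusted p = 0.117) in Y minus N.

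Oas3, which is activated by long double-stranded RNA, was at 3.64, 0.167, 0.391, 0.501 and 0.61 TPM in N1 to N5 and 3.9, 11.3, 11, 0.898 and 18.6 TPM in E1 to E5. Its level was 1.73, 1.68 and 7.2 TPM in Y1 to Y3 and 3.97 to 10.3 TPM in EY, with a median of 6.19 TPM. N1 stood well above the other N mice and just below the lowest EY mouse, E4 fell within N, and Y3 was the Y mouse above N. Oas3 rose by 3.19 ± 0.72 (SE, adjusted p = 0.00159) in EY minus N, with 3.10 ± 0.75 (SE, adjusted p = 0.0275) in E minus N. Oas1a, which shares 57.6% of its 50-base stretches with Oas1g and is therefore uncertain, was at 15.6, 1.92, 3.41, 8.69 and 3.54 TPM in N1 to N5 and 14.1, 59.6, 47.5, 10.4 and 68.7 TPM in E1 to E5. Oas1a was at 11.1, 8.06 and 27.5 TPM in Y1 to Y3 and 15.3 to 42.7 TPM in EY, with a median of 32.8 TPM. EY4 lay just below N1, and the other EY mice lay above all N mice. Oas1a rose by 2.48 ± 0.58 (SE, adjusted p = 0.00199) in EY minus N, with 2.60 ± 0.60 (SE, adjusted p = 0.0201) in E minus N. Oas2 rose by 3.07 ± 0.76 (SE, adjusted p = 0.00327) and Oasl2 by 2.38 ± 0.65 (SE, adjusted p = 0.00647) in EY minus N, and for both the EY mice lay above all N mice. Oas3 lost its call in EY minus N with only N1 to N3 as controls or voom (adjusted p up to 0.0141). Oas2 lost its call in EY minus N without N5 (adjusted p = 0.0118) and with only N1 to N3 as controls or voom (adjusted p up to 0.032). Oasl2 lost its call in EY minus N without N2, N3, N5, EY2, EY3, EY5 or EY6 (adjusted p up to 0.0223) and with median-of-ratios scaling, quantile normalization or only N1 to N3 as controls (adjusted p up to 0.0229).

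The ISG15 system comprises Isg15, a ubiquitin-like protein joined to other proteins, Herc6, the mouse ligase for it, and Usp18, which removes it and also damps receptor signalling. Usp18 was at 2.57, 0.375, 0.665, 1.55 and 1.42 TPM in N1 to N5 and 3.64, 15.9, 12.3, 2.17 and 17.4 TPM in E1 to E5. In Y1 to Y3 it was at 1.99, 3.23 and 5.69 TPM, and in EY it ran from 2.41 to 13.6 TPM with a median of 8.03 TPM. E4, Y1 and EY4 lay within the N range, all other transgenic mice above it. Usp18 rose by 2.47 ± 0.60 (SE, adjusted p = 0.00284) in EY minus N, with 2.71 ± 0.63 (SE, adjusted p = 0.0202) in E minus N and 1.52 ± 0.72 (SE, adjusted p = 0.176) in Y minus N. Isg15, the most abundant of the 3, ranged over 18.4 to 172 TPM in N, 109 to 1365 TPM in E, 126 to 482 TPM in Y and 204 to 983 TPM in EY. N1 and N4 were the high N mice for Isg15, every EY mouse lay above them, and it rose by 2.79 ± 0.73 (SE, adjusted p = 0.00478) in EY minus N. Herc6 stayed at or below 1.74 TPM in all mice, was not called in any comparison with N, and shares 12.5% of its 50-base stretches with other genes, mostly Gm45193. Usp18 lost its call in EY minus N without N2 (adjusted p = 0.0102) and with median-of-ratios scaling or voom (adjusted p up to 0.0135). Isg15 lost its call in EY minus N without N2, N3, N5, EY3 or EY5 (adjusted p up to 0.0169) and with median-of-ratios scaling, quantile normalization or only N1 to N3 as controls (adjusted p up to 0.0157).

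The Ifit proteins bind foreign RNA and hold back its translation, and the Mx GTPases trap viral nucleocapsids. None of the 4 Ifit genes was called in a comparison with N by limma or voom, with 2, 0 and 2 at an unadjusted p under 0.05 in E, Y and EY minus N. Ifit1 ranged over 1.67 to 17.6 TPM in N, 4.02 to 94.5 TPM in E and 7.94 to 64.4 TPM in EY, with a log2 fold change of 2.40 ± 0.87 (SE, adjusted p = 0.0338) in EY minus N. For Ifit2 the ranges were 0.622 to 4.1 TPM in N and 1.7 to 6.3 TPM in EY, with 1.5 ± 0.51 (SE, adjusted p = 0.0237). N1 lay inside the EY range for both. Ifit3 and Ifit3b share 51.2% and 45% of their 50-base stretches, mostly with each other, so the level of each is uncertain. Ifit3 had 1.95 ± 0.95 (SE, adjusted p = 0.113) in EY minus N, and Ifit3b had 1.94 ± 0.97 (SE, adjusted p = 0.124). Mx2 ranged over 0.0916 to 1.25 TPM in N and 1.46 to 6.35 TPM in EY without overlap, and rose in EY minus N by 2.88 ± 0.74 (SE, adjusted p = 0.00438). For Mx1 the value was 2.38 ± 0.80 (SE, adjusted p = 0.0233), and RefSeq lists both Mx genes as transcribed pseudogenes in this genome. Mx2 lost its call in EY minus N without N2, N3, N4 or EY5 (adjusted p up to 0.0143) and with a pseudocount of 1 TPM, median-of-ratios scaling, only N1 to N3 as controls or voom (adjusted p up to 0.0261).

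Of the 11 other antiviral effectors, 9 rose in EY minus N. Bst2, or tetherin, holds budding virus at the cell surface and was at 33.1, 7.32, 8.19, 14.3 and 8.49 TPM in N1 to N5 and 33.7, 163, 135, 21.3 and 200.6 TPM in E1 to E5. Bst2 was at 34.5, 33.5 and 107 TPM in Y1 to Y3 and between 81.4 and 222 TPM in EY, with a median of 144 TPM. Every Y and EY mouse lay above every N mouse, E4 fell below N1, and the E mice E2, E3 and E5 reached into the EY range. Bst2 rose by 3.55 ± 0.57 (SE, adjusted p = 6.84e-05) in EY minus N, the smallest adjusted p of the members, with 2.73 ± 0.60 (SE, adjusted p = 0.0137) in E minus N and 2.05 ± 0.69 (SE, adjusted p = 0.0504) in Y minus N. Ifi35, a small interferon-induced protein that binds its partner Nmi, was at 14.5, 5.29, 10.3, 12.2 and 10.2 TPM in N1 to N5 and 21, 40.5, 35.8, 14.4 and 53.6 TPM in E1 to E5. Ifi35 was at 14, 13.7 and 28.2 TPM in Y1 to Y3 and ran from 18.9 to 40.6 TPM in EY, with a median of 29.4 TPM. All EY mice lay above all N mice, whereas E4, Y1 and Y2 lay within N. Ifi35 rose by 1.48 ± 0.33 (SE, adjusted p = 0.00139) in EY minus N, with 1.57 ± 0.34 (SE, adjusted p = 0.0137) in E minus N. Ifi35 lost its call in EY minus N with median-of-ratios scaling or quantile normalization (adjusted p up to 0.0181).

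Eif2ak2, the kinase PKR, which halts translation when it binds double-stranded RNA, was at 9.65, 5.7, 7.93, 7.75 and 6.45 TPM in N1 to N5 and 8.51, 25.6, 20.3, 9.71 and 27 TPM in E1 to E5. Eif2ak2 was at 8.72, 12.4 and 12.5 TPM in Y1 to Y3 and 12 to 33.9 TPM in EY, with a median of 23.4 TPM. All EY mice and Y2 and Y3 lay above N, and E4 lay just above N1. Eif2ak2 rose by 1.46 ± 0.33 (SE, adjusted p = 0.00162) in EY minus N, with 1.14 ± 0.35 (SE, adjusted p = 0.0883) in E minus N. Rtp4, a chaperone of receptor transport that binds viral RNA, was at 1.16, 0.162, 0.245, 0.372 and 0.224 TPM in N1 to N5 and 0.91, 4.3, 3.84, 0.42 and 5.55 TPM in E1 to E5. Rtp4 was at 0.545, 0.717 and 1.81 TPM in Y1 to Y3 and 1.33 to 3.7 TPM in EY, with a median of 2.62 TPM. The EY mice lay above all N mice, and E1, E4, Y1 and Y2 did not. Rtp4 rose by 2.44 ± 0.59 (SE, adjusted p = 0.00281) in EY minus N, with 2.30 ± 0.62 (SE, adjusted p = 0.0487) in E minus N; it shares 11.6% of its 50-base stretches with Gm45338 and overlaps Masp1, so its value is uncertain. Eif2ak2 lost its call in EY minus N with median-of-ratios scaling, quantile normalization or only N1 to N3 as controls (adjusted p up to 0.015). Rtp4 lost its call in EY minus N with only N1 to N3 as controls (adjusted p = 0.0223).

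Rsad2, or viperin, makes a nucleotide that ends viral RNA chains and was at 4.66, 0, 0.42, 1.15 and 0.121 TPM in N1 to N5 and 3.04, 22.6, 14.5, 0.488 and 48.9 TPM in E1 to E5. Rsad2 was at 0.947, 2.36 and 7.58 TPM in Y1 to Y3 and 3.61 to 39.9 TPM in EY, with a median of 14.5 TPM. N1 stood above EY4, E1, E4, Y1 and Y2, and N2 had no reads. Rsad2 rose by 4.49 ± 1.10 (SE, adjusted p = 0.00303) in EY minus N, the largest fold change of the members, with 3.75 ± 1.15 (SE, adjusted p = 0.0927) in E minus N. Cmpk2, the nucleotide kinase encoded next to Rsad2, was at 1.66, 0.22, 0.241, 0.37 and 0.156 TPM in N1 to N5 and 2.06, 9.02, 5.02, 0.314 and 12.4 TPM in E1 to E5. Cmpk2 was at 0.136, 1.25 and 3.01 TPM in Y1 to Y3 and 1.57 to 10.5 TPM in EY, with a median of 6.04 TPM. EY4 lay below N1 for Cmpk2 too, as did E4, Y1 and Y2. Cmpk2 rose by 3.45 ± 0.85 (SE, adjusted p = 0.00323) in EY minus N, with 2.89 ± 0.89 (SE, adjusted p = 0.0946) in E minus N. Rsad2 lost its call in EY minus N without N2 or N5 (adjusted p up to 0.0109) and with only N1 to N3 as controls or voom (adjusted p up to 0.048). Cmpk2 lost its call in EY minus N without N5 (adjusted p = 0.0105) and with only N1 to N3 as controls or voom (adjusted p up to 0.0286).

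Ifi27l2a, singled out after its values were seen, is the most abundant of this group, a small membrane protein, at 265, 79, 118, 100.1 and 48.4 TPM in N1 to N5 and 296, 1237, 1600.0, 353 and 1782 TPM in E1 to E5. Ifi27l2a was at 216, 320.3 and 795 TPM in Y1 to Y3 and 271 to 972 TPM in EY, with a median of 459 TPM. All E and all EY mice lay above all N mice, and Y1 was the only Y mouse within N. Ifi27l2a rose by 2.98 ± 0.58 (SE, adjusted p = 0.0059) in E minus N and by 2.23 ± 0.56 (SE, adjusted p = 0.00347) in EY minus N, and overlaps Ifi27 in the annotation. Xaf1, which counters an inhibitor of apoptosis, rose by 1.76 ± 0.50 (SE, adjusted p = 0.00885) in EY minus N and had 2.15 ± 0.53 (SE, adjusted p = 0.0289) in E minus N. Ifi44 rose by 2.97 ± 0.78 (SE, adjusted p = 0.00499) in EY minus N, with 0.571 to 3.82 TPM in N and 4.49 to 28.1 TPM in EY and no overlap between them. Samd9l, a restrictor of translation, did not pass (1.69 ± 0.51 SE, adjusted p = 0.0124), although its EY mice lay above all N mice. Trim30a did not pass either (1.45 ± 0.59 SE, adjusted p = 0.0589) and stayed at or below 2.00 TPM. Ifi27l2a lost its call in E minus N without N2, N3, N4, N5, E2, E3 or E5 (adjusted p up to 0.0225) and with quantile normalization, only N1 to N3 as controls or only the 2 groups compared in the fit (adjusted p up to 0.0725). Ifi27l2a lost its call in EY minus N without N5 (adjusted p = 0.013) and with median-of-ratios scaling, quantile normalization or only N1 to N3 as controls (adjusted p up to 0.0389). Xaf1 lost its call in EY minus N without N2, N3, N5, E3, Y2, EY2, EY3, EY5 or EY6 (adjusted p up to 0.0284) and with a pseudocount of 1 TPM, median-of-ratios scaling, quantile normalization, only N1 to N3 as controls or voom (adjusted p up to 0.0409). Ifi44 lost its call in EY minus N without N2, N3, N5, EY3 or EY5 (adjusted p up to 0.0171) and with median-of-ratios scaling, quantile normalization, only N1 to N3 as controls or voom (adjusted p up to 0.024).

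Parp9 and Dtx3l form a complex of an ADP-ribosyltransferase and a ubiquitin ligase, and Parp14 is a further ADP-ribosyltransferase; the 3 genes lie side by side on chromosome 16. Parp9 was at 7.19, 3.64, 3.56, 5.2 and 5.56 TPM in N1 to N5 and 6.76, 24.3, 19, 7.48 and 26.4 TPM in E1 to E5. Parp9 was at 6.61, 7.31 and 14.3 TPM in Y1 to Y3 and 9.44 to 23.7 TPM in EY, with a median of 17.7 TPM. The EY mice lay above all N mice, as did all E mice except E1 and all Y mice except Y1. Parp9 rose by 1.67 ± 0.38 (SE, adjusted p = 0.0018) in EY minus N, with 1.55 ± 0.40 (SE, adjusted p = 0.0391) in E minus N. Parp14 rose by 1.78 ± 0.51 (SE, adjusted p = 0.00911) and Dtx3l by 1.28 ± 0.36 (SE, adjusted p = 0.00768) in EY minus N, and N1 lay above EY1 and EY4 for Parp14 and above EY4 for Dtx3l. Parp9 and Dtx3l overlap in the annotation, and since the strand setting of the read counting is not given in the sources used here, reads in the overlap cannot be told apart. Parp9 lost its call in EY minus N with median-of-ratios scaling or quantile normalization (adjusted p up to 0.0129). Parp14 lost its call in EY minus N without N2, N3, N4, N5, E1, E3, E5, Y1, Y2, EY2, EY3, EY5 or EY6 (adjusted p up to 0.0287) and with a pseudocount of 1 TPM, no filter, median-of-ratios scaling, quantile normalization, only N1 to N3 as controls, only the 2 groups compared in the fit or voom (adjusted p up to 0.099). Dtx3l lost its call in EY minus N without N2, N3, N4, N5, EY2, EY3, EY5 or EY6 (adjusted p up to 0.0257) and with median-of-ratios scaling, quantile normalization, only N1 to N3 as controls or voom (adjusted p up to 0.0566).

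The immunity-related GTPases Irgm1, Igtp and Ifi47 and the guanylate-binding proteins Gbp2 and Gbp3 act on vacuoles that hold pathogens and are known to respond to interferon gamma. Irgm1 was at 20.2, 3.8, 5.27, 8.91 and 7.65 TPM in N1 to N5 and 18.3, 60.2, 52.5, 9.84 and 72.8 TPM in E1 to E5. Irgm1 was at 6.9, 14.3 and 31.3 TPM in Y1 to Y3 and 19.6 to 66.9 TPM in EY, with a median of 49.3 TPM. EY4 lay just below N1 and all other EY mice above it, while E1, E4, Y1 and Y2 lay within the N range. Irgm1 rose by 2.35 ± 0.56 (SE, adjusted p = 0.00255) in EY minus N, with 2.10 ± 0.59 (SE, adjusted p = 0.0605) in E minus N and 0.90 ± 0.68 (SE, adjusted p = 0.42) in Y minus N. Ifi47 rose by 3.66 ± 0.93 (SE, adjusted p = 0.00393) in EY minus N from a low level, 0 to 1.96 TPM in N against 2.16 to 8.39 TPM in EY, without overlap. Gbp3 rose by 2.84 ± 0.81 (SE, adjusted p = 0.0086), with 0.968 to 4.84 TPM in N and 5.94 to 29.9 TPM in EY. Igtp, which shares 11.8% of its 50-base stretches with Irgm2, had 2.53 ± 0.84 (SE, adjusted p = 0.0215), and Gbp2 had 2.60 ± 0.77 (SE, adjusted p = 0.0108); neither was called. N1 was far above the other N mice for both. Irgm1 lost its call in EY minus N with median-of-ratios scaling, quantile normalization or only N1 to N3 as controls (adjusted p up to 0.0141). Ifi47 lost its call in EY minus N without N4 or N5 (adjusted p up to 0.0144) and with only N1 to N3 as controls or voom (adjusted p up to 0.0595). Gbp3 lost its call in EY minus N without N2, N3, N4, N5, Y2, EY1, EY2, EY3, EY5 or EY6 (adjusted p up to 0.0249) and with median-of-ratios scaling, quantile normalization, only N1 to N3 as controls or voom (adjusted p up to 0.0509).

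**Figure D5:**
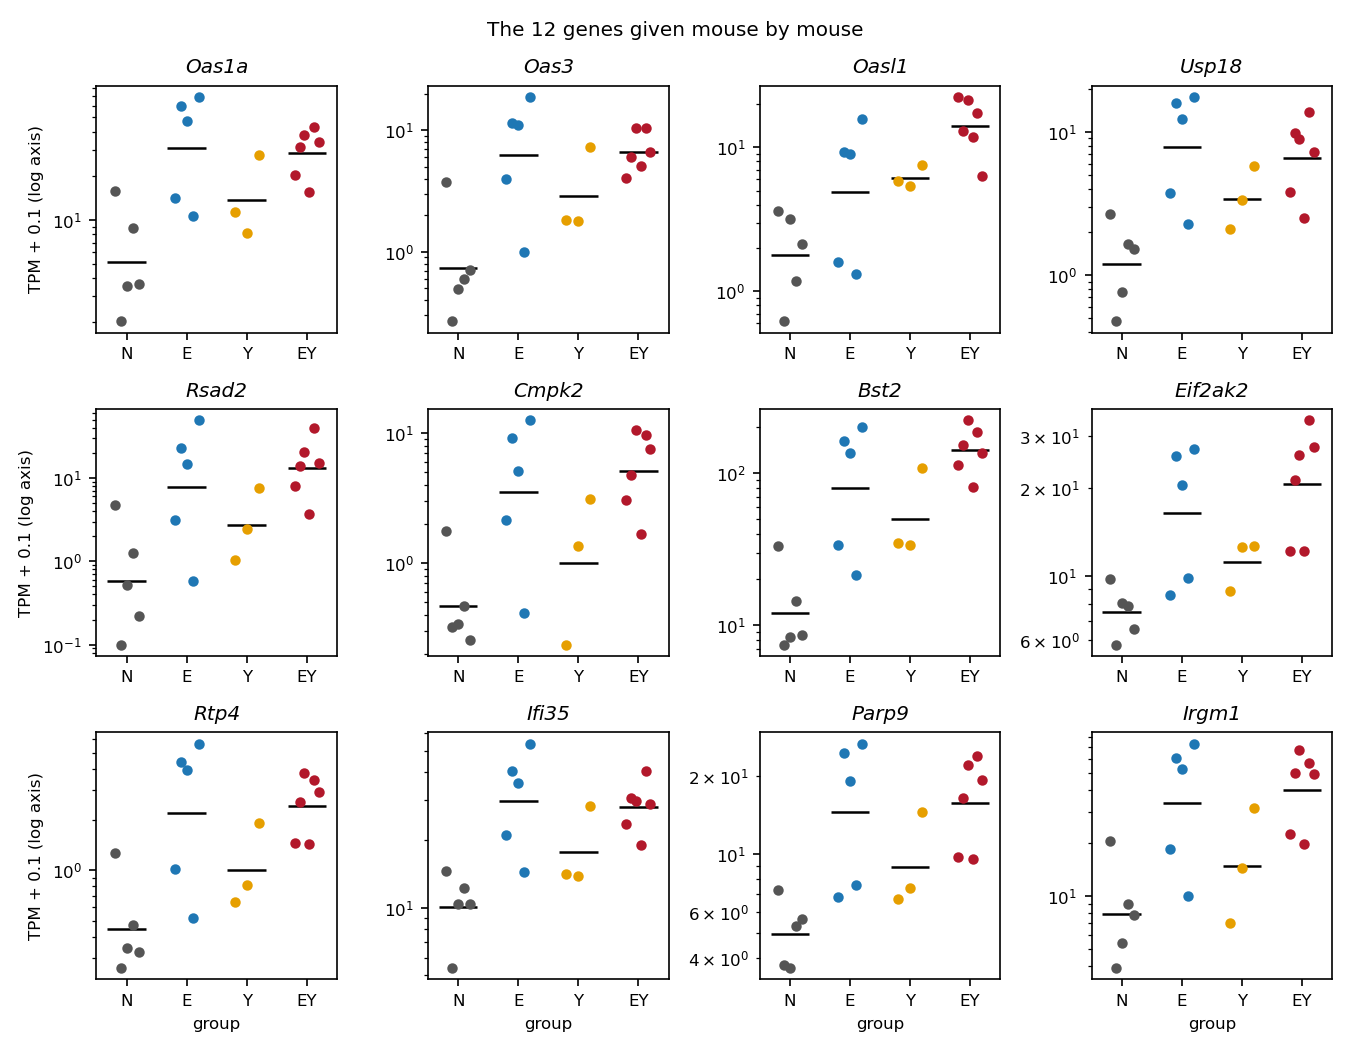
TPM + 0.1 on a log axis for 12 members in groups N, E, Y and EY, with each point 1 mouse and each line the group mean of the log values. Points of E fall in a high and a low part, and those of EY lie above all or nearly all N points for each gene.

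Whether the transgenic groups differed from each other was tested directly. In EY minus E, limma called 0 of 39 members in either direction, where 7.82% of all genes were called higher and 4.99% lower. Voom called 0, and 2 members reached an unadjusted p under 0.05, against 9909 of all 22745 genes tested. That 2 was 4 without E5, and 1 without E1, E2, E3, E4, EY1 or EY4 or with either rescaling. The member median was 0.14 on the log2 scale, below the 0.26 of all genes, and it turned to -0.12 after median-of-ratios scaling and -0.11 after quantile normalization. Median-of-ratios scaling lowered the median of all genes by 0.22 in this comparison and moved the share of calls that were higher from 61.1% to 38.9%. The members nearest to the threshold were Irf9, at -0.66 ± 0.26 (SE, adjusted p = 0.061), and Oasl1, at 1.53 ± 0.62 (SE, adjusted p = 0.0645), both named after their values were seen. Irf9 was the lower in EY and Oasl1 the higher.

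In EY minus Y, limma and voom both called 0 of 39 members, where 1.07% of all genes were called higher and 0.928% lower. An unadjusted p under 0.05 was reached by 10 members, against 5425 of all 22745 genes tested. That 10 was 0 without Y1, 2 without Y2, EY3 or EY5, 4 without EY2, 6 without EY6, 17 without E4 or EY4 and 19 without Y3. It was also 4 after median-of-ratios scaling, 5 after quantile normalization and 28 with only EY and Y in the fit. All 39 fold changes were positive, with a median of 1.27 against 0.18 for all genes. Median-of-ratios scaling lowered the median of all genes by 0.16 and left a member median of 1.10, and the share of calls that were higher moved from 53.5% to 30.3%. In Y minus E, limma and voom again called 0 members, where 1.67% of all genes were called higher and 0.805% lower. An unadjusted p under 0.05 was reached by 4 members, against 5293 of all 22745 genes tested. That 4 was 13 without E1, 24 without E4, 2 without Y1, 16 without Y3 and 8 with voom. Limma called 1 member without E4 or at an adjusted p below 0.05. Of the 39 fold changes 38 were negative, with a median of -1.13 against 0.04 for all genes, and the share of all calls that were higher was 67.5%, or 56.1% after median-of-ratios scaling. Oasl1 was the member with a positive value, at 0.34.

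The interaction (EY - E - Y + N) set the EY effect against both single effects added together. Limma and voom called 0 of 39 members, where 0.00879% of all genes were called higher and 0.167% lower. An unadjusted p under 0.05 was reached by 2 members, against 3072 of all 22745 genes tested. That 2 was 5 without N1, 9 without E4 and 1 without N2, N3, N5, E2, E3, E5, Y3, EY1 or EY4, with only N1, N2 and N3 as controls or after quantile normalization. The interaction was negative for 33 members, with a median of -0.73 against 0.08 for all genes. For Ifi27l2a, chosen here because it was the lowest, the interaction was -2.62 ± 0.87 (SE, adjusted p = 0.181). Calls in EY minus N without a call in E minus N or Y minus N therefore do not show that the groups differ.

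The upstream genes of the pathway were read in the same fits. Of 21 interferon genes listed, 2 were analysed here: Ifna13 had at most 4 reads and Ifng at most 5 in any mouse, with 15 and 13 of 19 mice at 0 reads. Neither was called in a comparison with N by limma or voom, and 0 reached an unadjusted p under 0.05. The other 19 were not found by their listed symbols among the gene symbols measured, so no level could be read for them. Of 6 receptor chains, Ifngr1, the ligand-binding chain for interferon gamma, was at 7.11, 5.06, 6.26, 4.52 and 4.13 TPM in N1 to N5 and 5.21, 6.45, 6.75, 9.44 and 9.19 TPM in E1 to E5. Ifngr1 was at 12.2, 21.9 and 25.1 TPM in Y1 to Y3 and between 16.3 and 27 TPM in EY, so that all Y and EY mice lay above all N and E mice. Ifngr1 rose by 1.81 ± 0.25 (SE, adjusted p = 0.000122) in Y minus N and 1.87 ± 0.21 (SE, adjusted p = 1.41e-06) in EY minus N. Ifngr1 was named after its values were seen. Ifngr2, its partner, rose by 1.03 ± 0.16 (SE, adjusted p = 6.05e-05) in EY minus N, while Ifnar1, Ifnar2, Ifnlr1 and Il10rb were not called in a comparison with N. Ifngr2 lost its call in EY minus N without N4, N5 or EY2, where its log2 fold change was 1 or less and with a pseudocount of 1 TPM, median-of-ratios scaling, quantile normalization, only N1 to N3 as controls or voom, where its log2 fold change was 1 or less. All 6 receptors reached an unadjusted p under 0.05 in EY minus N, 4 higher and 2 lower. Many of all genes tested also reached this p in EY minus N, as counted with the members above, and 12.6% were called higher.

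Of 15 kinases, STATs, IRFs and inhibitors, limma called 0 in E minus N (voom 0; 2 at an unadjusted p under 0.05), 0 in Y minus N (voom 0; 7 at an unadjusted p under 0.05) and 3 in EY minus N, all higher. Over all genes tested, 1.16% were called higher in E minus N, 3.47% in Y minus N and 12.6% in EY minus N. The 3 calls in EY minus N were Irf1 (1.7 ± 0.44 SE, adjusted p = 0.00458), Socs1, an inhibitor of JAK kinases (1.78 ± 0.36 SE, adjusted p = 0.000575), and Ptpn2, a tyrosine phosphatase (1.26 ± 0.16 SE, adjusted p = 5.94e-06). Irf1 lost its call in EY minus N without N3, N4, N5, EY2 or EY3 (adjusted p up to 0.0137) and with median-of-ratios scaling, quantile normalization, only N1 to N3 as controls or only the 2 groups compared in the fit (adjusted p up to 0.0524). Ptpn2 lost its call in EY minus N with median-of-ratios scaling or quantile normalization, where its log2 fold change was 1 or less. Of 15 sensing and adaptor genes, limma called 0 in E minus N (voom 2; 6 at an unadjusted p under 0.05), 0 in Y minus N (voom 1; 5 at an unadjusted p under 0.05) and 5 in EY minus N, among them Ddx58, the sensor RIG-I (2.25 ± 0.41 SE, adjusted p = 0.00022). The other 4, named after their values were seen, were Aim2, Cgas, Samhd1 and Tlr3. Aim2 lost its call in EY minus N without N5 (adjusted p = 0.0117) and with a pseudocount of 1 TPM, median-of-ratios scaling or only N1 to N3 as controls (adjusted p up to 0.0295, or a log2 fold change of 1 or less). Tlr3 lost its call in EY minus N without N3, N4, N5, EY3 or EY5 (adjusted p up to 0.0151) and with median-of-ratios scaling, quantile normalization or only N1 to N3 as controls (adjusted p up to 0.0435). Cgas lost its call in EY minus N with median-of-ratios scaling or quantile normalization, where its log2 fold change was 1 or less.

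A further 76 interferon-stimulated genes outside the 39 gave the counts 4 in E minus N, 2 in Y minus N and 36 in EY minus N, all higher, and voom gave 2, 1 and 30. The shares of all genes tested that limma called higher were 1.16%, 3.47% and 12.6%. In EY minus N the count was 19 after median-of-ratios scaling and 21 after quantile normalization. The E minus N count was 1 after either rescaling. The Y minus N count was 0 after median-of-ratios scaling and 1 after quantile normalization. Median log2 fold changes of the 76 genes were 1.00, 0.68 and 1.74, and N1 was the highest N mouse for 65 of 76 (85.5%). The calls in E minus N were Apol9a, Apol9b, Oas1b and Slfn9, named after their values were seen. Apol9a lost its call in E minus N without N2, N3, N5, E2, E3, E5, Y1, Y2, EY1, EY2, EY3, EY5 or EY6 (adjusted p up to 0.028) and with median-of-ratios scaling, quantile normalization, only N1 to N3 as controls, only the 2 groups compared in the fit or voom (adjusted p up to 0.0742). Apol9b lost its call in E minus N without N2, N3, N5, E2, E3, E5, Y1, EY1, EY2, EY3, EY5 or EY6 (adjusted p up to 0.0294) and with median-of-ratios scaling, quantile normalization, only N1 to N3 as controls, only the 2 groups compared in the fit or voom (adjusted p up to 0.0668). Oas1b lost its call in E minus N without N2, N3, N4, N5, E1, E2, E3, E5, Y1, Y3, EY1, EY2, EY3, EY4, EY5 or EY6 (adjusted p up to 0.0352) and with a pseudocount of 1 TPM, no filter, median-of-ratios scaling, quantile normalization, only N1 to N3 as controls or only the 2 groups compared in the fit (adjusted p up to 0.0643). Calls in EY minus N, named after their values were seen, included B2m (2.28 ± 0.55 SE, adjusted p = 0.0025), the immunoproteasome subunit Psmb8 (3.47 ± 0.61 SE, adjusted p = 0.000169) and the peptide transporter Tap1 (1.98 ± 0.38 SE, adjusted p = 0.000351). The chemokine Cxcl10, which attracts T cells, rose by 4.59 ± 1.16 (SE, adjusted p = 0.00378), from 37, 3.12, 0.568, 3.06 and 0.739 TPM in N1 to N5, where N1 was again the highest, to 31.4 to 195 TPM in EY. Ifitm3, a membrane protein that blocks viral entry, rose in Y minus N by 1.85 ± 0.39 (SE, adjusted p = 0.00354) as well as in EY minus N by 2.42 ± 0.32 (SE, adjusted p = 9.84e-06). B2m lost its call in EY minus N with median-of-ratios scaling or only N1 to N3 as controls (adjusted p up to 0.0286). Cxcl10 lost its call in EY minus N without N3 or N5 (adjusted p up to 0.0134) and with only N1 to N3 as controls or voom (adjusted p up to 0.0355). Ifitm3 lost its call in Y minus N without Y2 or Y3 (adjusted p up to 0.036) and with median-of-ratios scaling, only N1 to N3 as controls or only the 2 groups compared in the fit (adjusted p up to 0.0346).

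Beyond the lists, the 10 genes whose levels followed the mean of the members most closely over the 19 mice, after subtracting group means, were Nlrc5, Gm44148, Ms4a6b, Ifit1bl2, Ms4a4a, H2-Q4, Gm20496, H2-T10, Tdrd7 and Gm11626, with Pearson's r from 0.868 to 0.936. The ranking covered 22519 genes, and r is a description over the same libraries. Nlrc5, which activates class I genes and led the ranking, was at 3.62, 0.864, 0.709, 0.821 and 0.895 TPM in N1 to N5 and 1.93, 6.00, 4.98, 0.734 and 8.96 TPM in E1 to E5. It was highest in N1 among N and in E5 among E, as most members were.

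The members lie on 14 chromosomes in RefSeq, and 37 of 39 could be placed among coding genes. Of these, 11 are next to another member, including Rsad2 and Cmpk2, Oas2 and Oas3, Oasl1 and Oasl2, and Ifit2 and Ifit3. Members that share long stretches with other genes are uncertain, since a read there matches another gene as well. How such reads were counted is not given in the sources used here. Of the 39, 6 share over 10% of their 50-base stretches (Oas1a, Ifit3, Ifit3b, Herc6, Igtp and Rtp4) and 14 share none. Ifit1, Ifit3b, Eif2ak2, Rtp4, Ifi27l2a, Stat2, Parp9 and Dtx3l, 8 members in all, overlap another coding gene and are uncertain as well.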

How the data were processed

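Bulk RNA-seq of tongue epithelium from 19 mice was used as the TPM values deposited by the authors, who aligned reads to GRCm39 with STAR 2.7.9, used SAMtools 1.7, counted with HTSeq 0.13.5 and tested with DESeq2 1.34.0, which was not rerun. Groups follow the labels (5 N mice, 5 E mice, 3 Y mice and 6 EY mice). Genes reaching 0.1 TPM in 3 or more mice were fitted as log2(TPM + 0.1) with limma 3.58.1 in R 4.3.3 (4 group means, eBayes with a trend). P-values were adjusted by Benjamini-Hochberg over all 22745 genes, and calls needed an adjusted p under 0.01 and an absolute log2 fold change above 1. Whole reads, recovered within 0.01 for 24680 of 24680 symbols above 0, came to 8269674 to 11007304 per mouse and served voom. Python 3.11.15, pandas 2.3.3, numpy 2.4.6, scipy 1.17.1 and matplotlib 3.10.9 made the summaries. The fit was tested on simulated data.

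Values in every mouse are given for the members called in any comparison with N, at most 12, taken by smallest adjusted p; the 10 genes outside the lists most like the member mean are named by Pearson's r. The lists and this ranking leave out 2 genes not reported here. Members and lists were chosen with earlier results of these data known. Alternatives covered the pseudocount, the filter, scaling, the N mice used, the groups in the fit, a block on mouse number, robust eBayes, both thresholds, voom and each mouse left out.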

Additional observations from a re-analysis of the deposited data

Results flagged for a closer look

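Igtp was at 15.7 TPM in N1, far from the 1.51 to 2.82 TPM of the other N mice. Gbp2 was at 9.17 TPM in N1, far from the 1.43 to 2.15 TPM of the other N mice. In both, the gap from N1 to the next mouse was large against the range of the 5 N mice; 117 groups were examined in this way, and chance alone picks out about 1 in 20.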

How the results depend on the processing

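The members called in EY minus N, 25 in the report, numbered 9 with median-of-ratios scaling, 11 with quantile normalization, 6 with only N1, N2 and N3 as controls and 12 with voom. The share of all genes called higher was 12.6% in the report, 6.77% with median-of-ratios scaling and 7.18% with quantile normalization. Settings other than these and the block on mouse number kept the count of members within 1.5 times. In E minus N the 2 calls became 1 with median-of-ratios scaling, 0 with quantile normalization, 0 with only 3 N mice, 0 with only the 2 groups compared in the fit and 13 at an adjusted p below 0.05. At that threshold Y minus E had 1 call. The interaction has no value with only the 2 groups compared. The cause of these shifts was not tested.

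Without each mouse in turn, the count ran from 0 to 11 in E minus N (11 without E4), from 11 to 31 in EY minus N (11 without N5, 31 without E4) and from 0 to 1 in Y minus E, and it was 0 throughout in Y minus N, EY minus E, EY minus Y and the interaction.

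With mouse number as a replicate block the count was 15 in EY minus N and 0 in E minus N. Mice share only a number: of 24 same-number pairs, 0 had a correlation over 0.1 (-0.043 to 0.076), and 6 of 18 mice correlated best with their own number.

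With only 3 N mice, Ifit3 turned to -0.059 and Trim30a to -0.061 in E minus N. Of the 741 member values in EY minus N without a mouse, 632 kept direction and side of the threshold, 86 lost the call and 23 gained it, and none turned.

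Limits are the 3 mice of Y, the mixed genotypes of N, the spread within E, and the few reads of low members.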
